A study of Drosophila melanogaster with 2 samples.

Results

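Rab genes encode the Rab family of small GTPases, and 33 protein-coding genes of the Drosophila melanogaster annotation were taken as its members. They were chosen by symbol, as Rab or RabX followed by a digit. The symbol rule alone matched 36 protein-coding genes, of which Rab3-GEF, Rab3-GAP and Rab3GAP1 encode regulators of Rab3 and were left out. The 33 genes were read out of 13945 protein-coding genes on the 6 chromosome arms. By background knowledge of where each gene is used, and not by expression measured here, 13 were classed as widely expressed, 12 as tissue-restricted, and 8 were left unclassed. A gene is called bound here when the summit of a reproducible CG7987-GFP peak lay within 500 bp of any of its transcription start sites (TSSs). By that measure 7 of 33 Rab genes were bound, 21.2% (95% interval 8.98 to 38.9%), against 20.5% of all protein-coding genes. The family as a whole was therefore near the background. By class, 6 of 13 widely expressed genes (19.2 to 74.9%) and 0 of 12 tissue-restricted genes (up to 26.5%) were bound. These intervals overlap, and both include the 20.5% of all protein-coding genes. The classes were chosen with earlier results of these data known.

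Rab proteins are molecular switches of membrane traffic. In the GTP-bound state a Rab sits on the membrane of one compartment and recruits effectors such as tethers, motors and coat adaptors. Guanine nucleotide exchange factors (GEFs) load GTP and GTPase-activating proteins (GAPs) end the active state, while a prenyl group added with the help of an escort protein anchors the Rab to the membrane. Some members, such as Rab1, Rab5, Rab7 and Rab11, serve steps that every cell runs, and others, such as Rab3 at synapses or Rab32 at the pigment granules of the fly eye, serve specialised cells.

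The data came from chromatin immunoprecipitation with sequencing (ChIP-seq) on 2 biological replicates of whole embryos, which form 1 group. The embryos were of pooled sexes and 0 to 24 h old, so all embryonic stages and tissues were mixed. They came from a single transgenic strain, CG7987-GFP, in which CG7987 is stably expressed with GFP at its C-terminus; no source used here gives the promoter that drives it. Chromatin was sonicated, with a size range of 200 to 800 in the labels. The assay and antibody labels name ChIP for CG7987, whereas a description line calls the same libraries an input control; they were read as ChIP, and which label is right was not tested. The reproducible list, filtered on the irreproducible discovery rate (IDR), holds 4410 peaks, and the candidate lists of each replicate and of the pooled replicates hold 30000 each. The IDR peaks are the 4410 strongest pooled candidates by signal, a strength value from the authors' caller whose scale no source used here gives. The candidate lists are labelled as peaks with background, so a low-ranked candidate may be background. Read counts were not used here, so depth is unknown and intervals cover counting error over genes only.

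The sequences under 6 promoter-window summits and the strongest intron summit are shown because the bound members differ in what lies there. Each run holds the summit base and 50 bases on each side, on the strand of the Rab gene, 5′ to 3′, from the RefSeq copy of the Release 6 genome, the build of the dm6 peak coordinates. Capitals mark matches, on either strand, to 7 words that are known from fly promoters: CGATA, TATCGATA (the core of the DNA replication-related element), GGTCACACT (a core promoter word), the E-box CACGTG, a second E-box word, CAGCTG, the GAGA factor word GAGAG, and the TATA box word, TATAAA. TATCGATA contains CGATA, so those matches overlap.
Rab1 promoter, chr3R:21269003-21269103, minus strand: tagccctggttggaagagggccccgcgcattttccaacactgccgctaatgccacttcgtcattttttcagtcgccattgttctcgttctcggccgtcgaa
Rab5 intron near a start site, chr2L:2363798-2363898, minus strand: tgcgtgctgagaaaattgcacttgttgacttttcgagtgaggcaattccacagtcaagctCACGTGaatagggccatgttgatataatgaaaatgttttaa
Rab7 promoter, chr3R:23992935-23993035, plus strand: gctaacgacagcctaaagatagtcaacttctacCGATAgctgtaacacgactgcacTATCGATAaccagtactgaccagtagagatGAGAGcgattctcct
Rab8 promoter, chr3L:19871063-19871163, minus strand: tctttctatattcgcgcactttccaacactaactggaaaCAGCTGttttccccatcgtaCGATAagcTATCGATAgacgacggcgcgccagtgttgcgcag
Rab14 promoter, chr2L:14355090-14355190, plus strand: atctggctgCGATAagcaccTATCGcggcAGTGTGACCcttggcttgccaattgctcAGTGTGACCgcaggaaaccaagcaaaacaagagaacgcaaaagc
Rab30 promoter, chr2L:7032633-7032733, minus strand: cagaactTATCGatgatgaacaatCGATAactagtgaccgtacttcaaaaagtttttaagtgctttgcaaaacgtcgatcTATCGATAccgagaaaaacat
Rab11 intron, chr3R:21113236-21113336, plus strand: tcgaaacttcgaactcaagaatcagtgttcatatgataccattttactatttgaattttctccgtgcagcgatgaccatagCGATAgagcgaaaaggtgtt

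These runs fell into several kinds. TATCGATA lay under the summits of Rab7, Rab8 and Rab30, whereas 2.79% of all IDR summits and 4.80% of those within 500 bp of a TSS held it in a window of the same length. The shorter CGATA lay under Rab7, Rab8, Rab14, Rab30 and the Rab11 intron summit. It was at 20.2% of all IDR summits and 25.1% of those within 500 bp of a TSS. Of the intron summits not shown, that of Rab32 held CGATA, and those of Rab9 and Rab14 held none of the 7 words. The Rab14 promoter run held GGTCACACT as its reverse complement AGTGTGACC. That word was at 2.11% of all IDR summits and 3.59% of those within 500 bp of a TSS. The Rab5 run held CACGTG, found at 3.22% and 2.85% of these 2 sets. The Rab8 run also held CAGCTG (7.19% of all IDR summits, 8.95% of those within 500 bp of a TSS) and the Rab7 run GAGAG (16.0% and 15.8%). The Rab1 run held none of the 7 words, and TATAAA, present at 11.2% of all IDR summits, lay in none of the runs. A match describes letters and not a bound site.

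The bound genes that act early in secretion were Rab1 and Rab2. Rab1, which acts in transport from the endoplasmic reticulum to the Golgi, had its peak at chr3R:21268865-21269240. The summit lay 7 bp inside its single first exon, at a signal of 181 and rank 2746 of the pooled list. Replicate 1 alone gave a signal of 62.8 at rank 2795, and replicate 2 a signal of 135 at rank 2387. Signals of the 2 replicates are on their lists' own scales, so ranks are the comparable quantity, and at Rab1 they were close. Rab2, which acts at the Golgi and in the fusion of autophagosomes with lysosomes, had its peak at chr2R:6696555-6696930, with the summit 4 bp inside the first exon. Its pooled signal was 234 at rank 1637, with signals of 76.8 (rank 1823) in replicate 1 and 147 (rank 2017) in replicate 2. The Rab2 ranks also stood close to each other, and none of the 7 words lay under its summit.

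The endocytic members that were bound were Rab5, Rab7 and Rab14. Rab5, the Rab of early endosome fusion, had the highest promoter signal of the family, 258 at rank 1300, in a peak at chr2L:2363759-2363875. It was also the least even between replicates: replicate 1 gave a signal of 39.7 at rank 6538, with its summit 134 bp away, and replicate 2 a signal of 218 at rank 875. The summit lay in an intron, 344 bp upstream of the nearest of 6 annotated TSSs, whereas the other bound genes had their summits within 77 bp of a TSS. The Rab5 call rests on replicate 2 and on those alternative TSSs, since it is lost with a 250 bp window or with the most upstream TSS alone.

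Rab7, the Rab of late endosomes and lysosomes, had its peak at chr3R:23992797-23993172, with the summit 23 bp upstream of a TSS. Its pooled signal was 177 at rank 2841, with 62.3 (rank 2837) in replicate 1 and 139 (rank 2247) in replicate 2. Rab14, linked to phagosome maturation in flies, had a peak at chr2L:14354952-14355327 with its summit 5 bp upstream of a TSS. It was the weakest bound member, with a pooled signal of 153 at rank 3693. Replicate 1 gave 67.5 (rank 2407) and replicate 2 gave 94.1 (rank 4557), the latter just past rank 4410. Rab7 was thus among the strongest 4410 candidates of either replicate, and Rab14 among those of replicate 1 alone.

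Rab8 and Rab30 completed the bound set. Rab8, which acts in traffic from the Golgi to the plasma membrane, had its peak at chr3L:19871006-19871177, with the summit 35 bp upstream of a TSS. Its pooled signal was 246 at rank 1453, with 80.7 (rank 1628) in replicate 1 and 195 (rank 1120) in replicate 2. Rab30, a Golgi-associated Rab and the only bound member outside the widely expressed class, had its peak at chr2L:7032495-7032870, 77 bp upstream of its TSS. Its pooled signal was 205 at rank 2116, with 80.7 (rank 1624) in replicate 1 and 141 (rank 2180) in replicate 2. Both genes ranked inside the strongest 4410 of each replicate. Across the 7 bound genes the median signal was 205, against 207 over all 2857 bound protein-coding genes. The median distance from summit to TSS was 23.0 bp, against 79.0 bp.

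**Figure D1:**
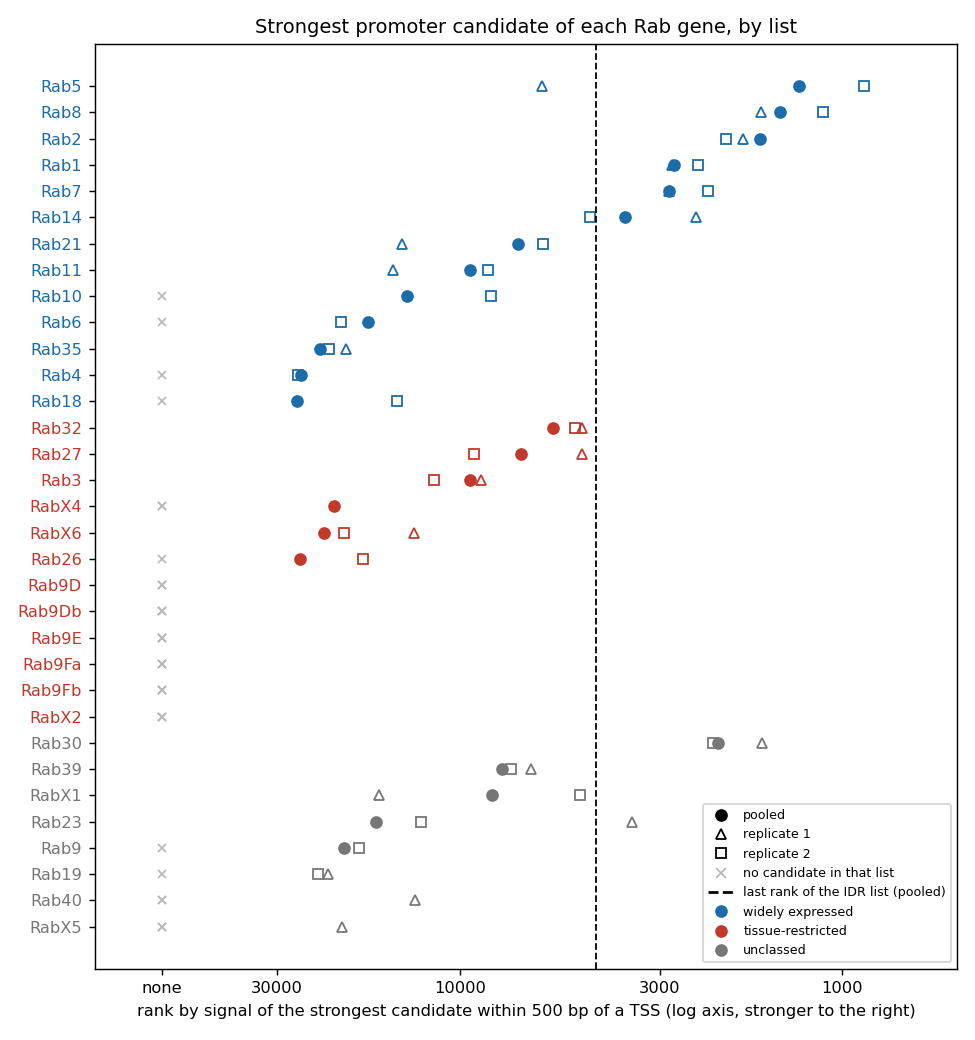
Rank by signal (log axis, stronger to the right) of the strongest candidate within 500 bp of a TSS for each of the 33 Rab genes, in the pooled list (filled circles), replicate 1 (triangles) and replicate 2 (squares); a grey cross stands for no candidate in that list. The dashed line is rank 4410, the end of the IDR list; 7 pooled circles lie to its right, 6 of them widely expressed (blue), 1 unclassed (grey) and 0 tissue-restricted (red).

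Most bound Rab promoters were shared with a neighbour. At 5 of 7, 71.4% (95% interval 29.0 to 96.3%), the summit also lay within 500 bp of a TSS of another protein-coding gene, against 48.1% of all bound genes, and the interval includes that value. The partners were Mob4, of the Mob family, at Rab2; Epp at Rab7; Usp32, a ubiquitin-specific protease gene, at Rab8; l(2)34Fd at Rab14; and Caper, a splicing factor gene, at Rab30. All 5 are transcribed from the strand opposite to the Rab gene. At Rab8 the summit was nearer to Usp32 (26 bp) than to Rab8 (35 bp), and at Rab30 it was nearer to Caper (38 bp) than to Rab30 (77 bp). Binding at such a summit cannot be assigned to one gene of the pair. Rab1 and Rab5 had no such neighbour.

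The wider pooled candidate list reached 24 of 33 Rab genes, 72.7% (95% interval 54.5 to 86.7%), against 55.4% of all protein-coding genes. That share lies just inside the interval. It held a candidate at all 13 widely expressed genes (interval 75.3 to 100%), at 6 of 12 tissue-restricted genes and at 5 of 8 unclassed genes. Replicate 1 alone had a candidate at 20 of 33 Rab genes, against 54.2% of protein-coding genes, and replicate 2 at 24 of 33, against 55.8%. In both replicates 18 genes had one, while 2 had one in replicate 1 alone, 6 in replicate 2 alone and 7 in neither. The same split was not counted over all protein-coding genes, so these counts have no background share beside them. The 4 widely expressed genes Rab4, Rab6, Rab10 and Rab18 were among those with one in replicate 2 alone.

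Among the widely expressed genes that missed the IDR list, Rab21, an endosomal Rab, came nearest, with a pooled signal of 103 at rank 7054. Rab11, the Rab of recycling endosomes, followed with 84.4 at rank 9407. Rab10, which in flies directs secretion of basement membrane proteins in the follicle cells, had 63.3 at rank 13731, and Rab6, a Golgi Rab, had 52.8 at rank 17364. The remaining 3 were low: Rab35, of endosomal recycling, at rank 23254, Rab4, of fast recycling, at rank 25998, and Rab18, linked to lipid droplets in mammals, at rank 26634. The Rab18 window was missed by an IDR summit 930 bp from its TSS. Ranks in the 2 replicates were apart for several of these genes; Rab21 stood at 14198 and 6049, and Rab11 at 14958 and 8443.

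None of the tissue-restricted genes passed, although 3 had middling candidates. Rab32, the pigment granule Rab named above, was the Rab gene next below the end of the IDR list, with a pooled signal of 119 at rank 5709 and ranks of 4804 and 4983 in replicates 1 and 2. Rab14, at rank 3693, was the last Rab gene above it. Rab27, a secretory granule Rab in mammals, had 105 at rank 6898, with ranks of 4795 and 9194. Its summit lay 4 bp from a TSS of mei-38, which encodes a spindle microtubule protein, and 93 bp from that of Rab27. Rab3, the synaptic vesicle Rab, had 84.4 at rank 9418, with ranks of 8773 and 11671. RabX4 (rank 21253), RabX6 (22686) and Rab26 (26147) were low in the list, and RabX4 had no candidate in either replicate alone.

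Among the unclassed genes, Rab39, linked to lysosomes, had a pooled signal of 96.5 at rank 7762 and RabX1 had 92.9 at rank 8215. Rab23, a regulator of planar cell polarity in flies, ranked 16583 in the pooled list but 3538 in replicate 1 and 12595 in replicate 2, from summits at different places in the window. Rab9, which acts between late endosomes and the Golgi, ranked 20063. Rab19, Rab40 and RabX5 had no pooled candidate, though each had one in replicate 1 at rank 22116, 13120 and 20271.

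**Figure D2:**
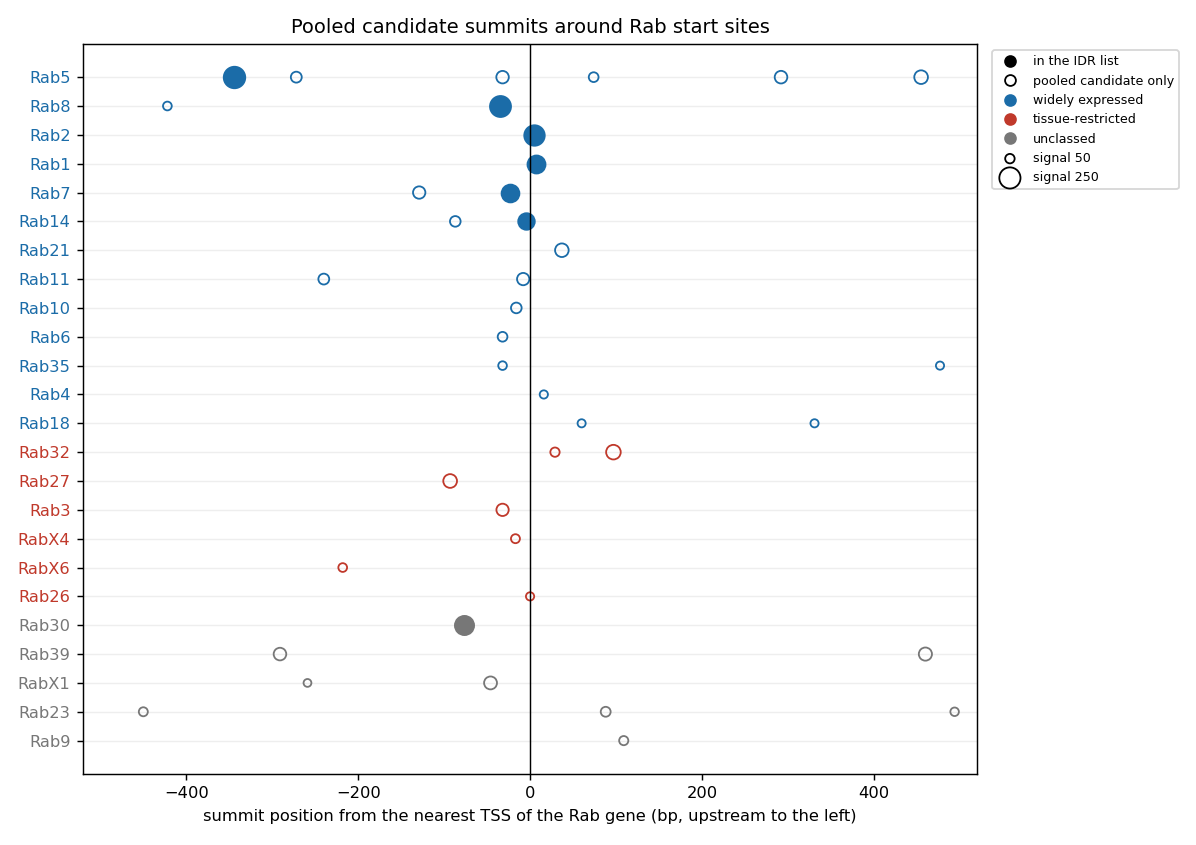
Position in bp of every pooled candidate summit within 500 bp of a Rab TSS, measured from the nearest TSS of that gene with upstream to the left, for the 24 members that have one; circle area follows signal, filled circles are in the IDR list and open ones are not. In 19 of 24 members the strongest summit lies within 100 bp of a TSS. The median over all protein-coding genes with a pooled candidate, 83.0 bp, is also below 100 bp. Rab5, at 344 bp upstream, is the only filled circle beyond 100 bp.

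The strongest candidate of a member lay upstream of the TSS in 14 of 24 genes, downstream in 9 and at the TSS in 1, Rab26. These sides were not counted over all protein-coding genes. The median distance was 33.5 bp in the 24 genes, against 83.0 bp over all 7721 protein-coding genes with a pooled candidate. Rab5 had 6 separate candidates in its windows, spread over its alternative TSSs, and only the strongest was in the IDR list. The other 5 had signals between 53.2 and 104.

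The split by class moved together with chromosome. Of the tissue-restricted genes 7 of 12 are on X, against 4 of 13 widely expressed ones. No X-linked Rab gene of any class was bound, 0 of 13 (upper bound 24.7%), against 16.0% of all X-linked protein-coding genes; that share lies inside the interval. On the autosomes 7 of 20 Rab genes were bound, 35.0% (15.4 to 59.2%), against 21.3% of autosomal genes. Among autosomal genes alone, 6 of 9 widely expressed and 0 of 5 tissue-restricted genes were bound, and the interval of the latter reaches up to 52.2%. In the pooled list X-linked Rab genes had a candidate in 6 of 13 cases, 46.2% (19.2 to 74.9%), against 58.2% of X-linked genes. Autosomal Rab genes had one in 18 of 20 cases, 90.0% (68.3 to 98.8%). The share of all autosomal genes, 54.8%, lies below that interval. The part of X linkage in the class difference was not tested.

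The split also moved with the number of TSSs, since a gene with more TSSs has more windows. Of the widely expressed genes 8 of 13 have 1 annotated TSS, and of the tissue-restricted genes 10 of 12. Among Rab genes with 1 TSS, 3 of 24 were bound, 12.5%, against 15.2% of all genes with 1 TSS; these were Rab1, Rab2 and Rab30. Within them 2 of 8 widely expressed and 0 of 10 tissue-restricted genes were bound. The part of TSS number was not tested.

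Over all genes, the intervals of the classes, 19.2 to 74.9% for widely expressed and up to 26.5% for tissue-restricted genes, overlap. In the strongest 4410 candidates of replicate 1 the counts were 5 of 13 and 0 of 12, against 19.7% of all protein-coding genes. In those of replicate 2 they were again 5 of 13 and 0 of 12, against 20.6%, with Rab5 in place of Rab14. The interval of 0 of 12, up to 26.5%, includes both shares. It counts all 12 genes alike, although the promoter windows of Rab9D, Rab9Db, Rab9E, Rab9Fa and RabX2 hold repeated sequence, as given below. Whether a peak could be called there was not tested.

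**Figure D3:**
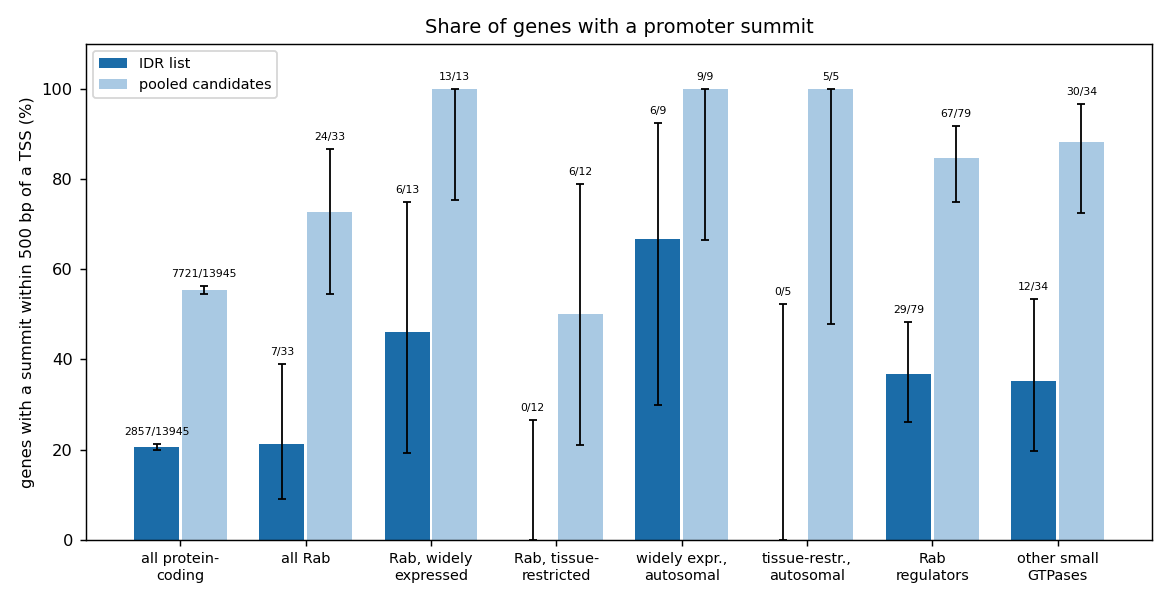
Percent of genes with a summit within 500 bp of a TSS, in the IDR list (dark bars) and the pooled candidate list (light bars), with exact 95% Clopper-Pearson intervals and counts above the bars. The tissue-restricted (0 of 12) and widely expressed (6 of 13) Rab genes stand on either side of 20.5%, the share of all protein-coding genes. Both intervals are wide and include that share. Autosomal genes of both classes all have a pooled candidate.

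Among genes with a pooled candidate, the median signal was 103 in 13 widely expressed and 64.7 in 6 tissue-restricted genes. Over all 7721 protein-coding genes with one it was 110, above both. The difference between these classes in having any pooled candidate came from a single group of genes. Rab9D, Rab9Db, Rab9E, Rab9Fa, Rab9Fb and RabX2 had no candidate in their windows in any list. All 6 are on X, have 1 exon and 1 TSS, and are 791 to 897 bp long. The other 6 tissue-restricted genes, Rab3, Rab26, Rab27, Rab32, RabX4 and RabX6, each had a pooled candidate, and so did all 13 widely expressed genes. The nearest pooled summits lay 1413 bp from Rab9D, 1475 bp from Rab9Db, and 14239 to 32424 bp from the other 4.

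These genes also differ from the rest in how much of their promoter windows is unique. Of all 36-base stretches in the windows, 56.3% occur once in the genome at Rab9D, 41.8% at Rab9Db, 30.7% at Rab9E, 32.7% at Rab9Fa and 71.5% at RabX2. At Rab9Fb 96.6% do, and at the other 27 Rab genes 100%. No source used here gives the read length or says how reads with several matches were treated, and the part of repeated sequence in the missing candidates was not tested.

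**Figure D4:**
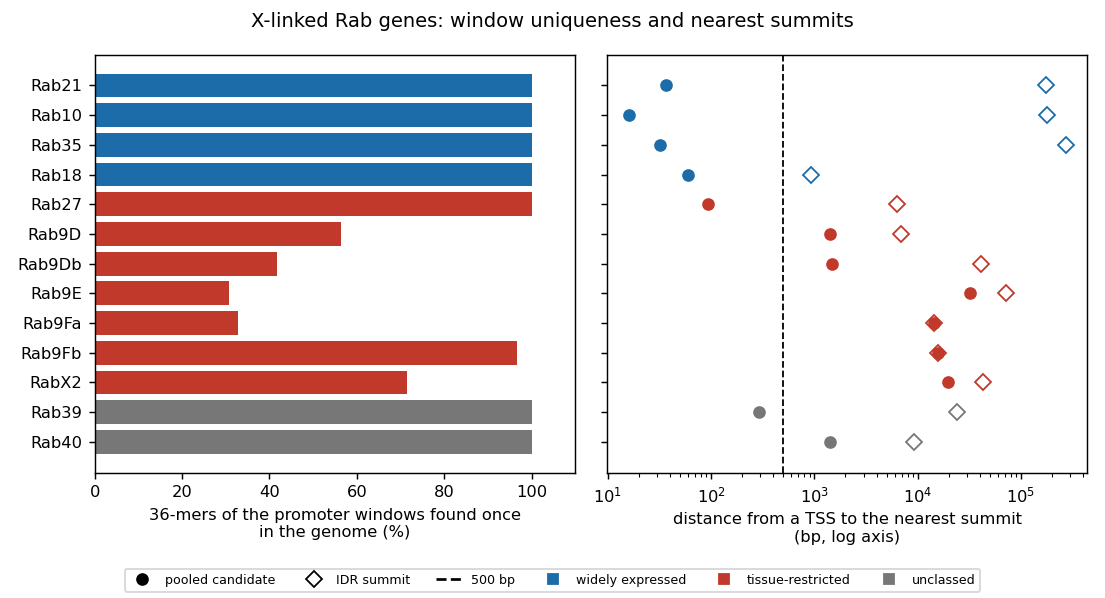
For the 13 X-linked Rab genes, the left panel shows the percent of 36-base stretches of the promoter windows found once in the genome and the right panel the distance in bp (log axis) from a TSS to the nearest pooled summit (filled circles) and IDR summit (open diamonds), with the 500 bp window dashed. The 6 single-exon genes from Rab9D to RabX2 lie right of the line in every case, and 5 of them have bars below 75%.

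Promoter words were counted in windows of 250 bp before to 50 bp after the most upstream TSS, and the classes stood apart for some words and not for others. CGATA was in the windows of 12 of 13 widely expressed genes, all but Rab4, against 47.4% of all protein-coding genes. It was in 2 of 12 tissue-restricted genes, Rab27 and RabX6. The tissue-restricted genes without it include the 6 single-exon X-linked genes from Rab9D to RabX2, most of them with repeated sequence in their windows. TATCGATA was in 11 of 33 Rab windows, 33.3%, against 9.36% of all; it was in 6 of 13 widely expressed, 2 of 12 tissue-restricted and 3 of 8 unclassed genes. Among genes bound in the IDR list as a whole, 15.1% held it. TATAAA was in 8 of 33 Rab windows, 24.2%, against 45.8% of all, and GAGAG in 4 of 33, 12.1%, against 29.7%. By class, GAGAG was in 2 of 13 widely expressed and 2 of 12 tissue-restricted genes, CAGCTG in 1 of 13 and 2 of 12, and TATAAA in 3 of 13 and 2 of 12. Of the 11 members with TATCGATA, 5 were bound (Rab2, Rab7, Rab8, Rab14 and Rab30) and 6 were not (Rab6, Rab19, Rab27, Rab35, Rab40 and RabX6), while Rab1 and Rab5 lack it and were bound. Over all protein-coding genes, 432 of the 1305 with TATCGATA were bound.

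Inside gene bodies, outside every promoter window of the gene, an IDR summit lay in 4 of 33 Rab genes, 12.1% (3.40 to 28.2%), against 7.14% of all protein-coding genes, and the interval includes that share. All 4 were in introns, and all ranked above every promoter summit of a Rab gene. The strongest was in Rab11, at chr3R:21113099-21113471, 1878 bp downstream of the TSS, with a signal of 516 at rank 294 and ranks of 534 and 258 in replicates 1 and 2. Rab11 thus had a strong intron peak beside a weak promoter candidate at rank 9407. In Rab32 the peak at chr2R:9183530-9183777 had a signal of 447 at rank 398, with ranks of 307 and 505; its summit lay 250 bp from a TSS of lncRNA:CR44284, a long non-coding RNA gene.

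The Rab9 peak, at chr2L:19434377-19434559 and 1896 bp downstream of the TSS, had a signal of 321 at rank 805, with ranks of 798 and 947. The Rab14 peak, at chr2L:14355622-14355808, had a signal of 306 at rank 896, with ranks of 702 and 1511. Its summit lay 552 bp downstream of the nearest TSS, just past the 500 bp window, and was stronger than the Rab14 promoter summit. Ranks of all 4 intron peaks were inside the strongest 4410 of both replicates.

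The proteins that act on Rabs gave a higher share than the Rabs. Of 79 regulator genes 29 were bound, 36.7% (26.1 to 48.3%), against the 20.5% of all protein-coding genes given above, and 67 of 79 (84.8%) had a pooled candidate, against 55.4% of all protein-coding genes. By role, 6 of 16 GEF genes, 7 of 15 GAP genes, 15 of 44 effector genes and 1 of 4 prenylation and recycling genes were bound. The 5 highest signals were at Mon1 (468), part of the GEF of Rab7; nuf (432), a Rab11 effector; Vps33B (397), of an endosomal tethering complex; strat (349), a GEF-type factor in Rab8 traffic; and sky (336), a GAP of synaptic vesicle traffic. All 5 signals exceed that of every Rab promoter. The median over the 29 bound regulators was lower, at 183, against 205 over the 7 bound Rab genes. Regulator genes are mostly autosomal, with 10 of 79 on X against 13 of 33 Rab genes, and among autosomal genes 28 of 69 regulators (40.6%) and 7 of 20 Rab genes (35.0%) were bound. The difference between the lists was not tested.

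Other small GTPases, the relatives of the Rabs with roles in growth signalling, the cytoskeleton and coat assembly, were bound in 12 of 34 cases, 35.3% (19.7 to 53.5%), against 20.5% of all protein-coding genes, a share inside that interval. Among them 4 of 10 Ras, 3 of 13 Arf and 0 of 2 Ran genes were bound. High signals were at Mtl (774) and Rac2 (279), both Rac-type regulators of actin, at Arl1 (630), which acts at the trans-Golgi, and at Ras85D (193), of receptor tyrosine kinase signalling. The highest signal at a Rab promoter was 258, below 3 of these 4. The median over the 12 bound small GTPase genes was 184, against 205 over the 7 bound Rab genes.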

How the data were processed

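Peak lists from ChIP-seq of 2 biological replicates were used: candidate peaks per replicate and pooled, and the IDR list. Per the labels and the deposited readme texts, coordinates are on dm6 and candidates were called on each replicate and on the pooled replicates. No source used here names the aligner, the caller or the IDR threshold. The signal of each peak is the authors' deposited value, on a scale that is not given, and was used only to describe and rank peaks within a list. The −log10 q-value deposited with each peak has 1 value, the highest, at all 4410 IDR peaks and was not used for ranking. A single replicate 1 candidate outside the 6 arms was left out.

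Summits were set against TSSs of the Ensembl 115 annotation (BDGP 6.54), counting coordinates from 1, with Python 3.11.15, numpy 2.4.6 and scipy 1.17.1. Figures used matplotlib 3.10.9. A summit counts for every gene with a TSS within 500 bp. A peak was matched between lists when summits lay within 250 bp. Shares carry exact Clopper-Pearson 95% intervals, which cover counting error over genes; neighbouring genes share summits and are not independent. No p-values were computed, since all samples form 1 group. Window counting was tested on simulated positions.

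The members, classes and lists were chosen with earlier results of these data known. Of 88 regulator symbols 75 matched by symbol, 10 by synonym and 3 were not found, giving 79 genes; of 41 small GTPase symbols 33, 5 and 3, giving 34 genes. All 33 Rab genes were named, with promoter partners, the 5 highest signals of each other list (for the small GTPases, 1 of these and 1 family count are not reported here), and the Rab genes next to the end of the IDR list. Alternatives were windows of 250 and 1000 bp, the most upstream TSS alone, the nearest TSS alone, each replicate alone, the peaks above a list's median signal and another placing of unclassed genes. Restricting to autosomal genes or to genes with 1 TSS, and adding the 3 Rab3 regulators, were chosen after seeing the data.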

Additional observations from a re-analysis of the deposited data

How the results depend on the processing

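Of 95 alternatives of the counts and shares, 82 stayed within 1.5 times the reported value, and of 14 rank comparisons 12 did. IDR peaks above the list's median signal bound 4 of 33 Rab genes (12.1%), 3 of them widely expressed. They bound 10 of 79 regulators (12.7%), 4 of 34 other small GTPases (11.8%) and 10.9% of protein-coding genes. Pooled candidates above their median signal reached 15 of 33 Rab genes (45.5%), near the 44.5% of all protein-coding genes. By class these were 9 of 13 widely expressed and 3 of 12 tissue-restricted genes. Both lists hold fewer peaks. Among genes with 1 TSS, a restriction chosen after seeing the data, 3 of 24 Rab genes, 2 of 8 widely expressed Rab genes and 7 of 20 other small GTPases were bound, and 8 of 8 widely expressed Rab genes had a pooled candidate; fewer genes were counted. With unclassed genes counted as widely expressed, 7 of 21 were bound (33.3%) and 18 of 21 had a pooled candidate. With unclassed genes counted as tissue-restricted, 1 of 20 was bound (Rab30) and 11 of 20 had a pooled candidate. The count of 0 bound tissue-restricted genes held with a 1000 bp window and in each replicate alone. Narrower windows, fewer TSSs, stronger peaks or fewer genes could only keep that count at 0, so those settings do not test it. Counting a summit only for its nearest TSS removed Rab8 and Rab30, leaving 5 bound Rab genes. Adding the 3 Rab3 regulators gave 9 of 36. In the strongest candidates of replicate 2 alone 6 Rab genes were bound, and in those of replicate 1 alone 7. The sets differ, since replicate 2 lost Rab14, and replicate 1 lost Rab5 and gained Rab23. Only Rab1, Rab2, Rab7, Rab8 and Rab30 were in both. Rab5 ranked 6538 in replicate 1, and Rab14 2407; the cause was not tested. With depth unknown, weak sites may have been missed. No paired analysis was possible because the samples form 1 group.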

Other observations

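The complexes described here were picked from the regulator genes after their values were seen. Mon1 and Ccz1, which together form the GEF of Rab7, were both bound, with pooled signals of 468 and 306 at ranks 363 and 899, and Rab7 itself was bound at 177. Of the exocyst, an effector complex that tethers secretory vesicles, Sec3 (168), Sec5 (165), Sec6 (194) and Sec10 (141) were bound. Sec15 (89.3), Exo70 (42.1) and Exo84 (37.9) had only weaker pooled candidates, and Sec8 had none.

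Among subunits of the HOPS and CORVET tethers, which act with Rab7 and Rab5, Vps16A (137, rank 4515) lay just past the end of the IDR list. The pooled signals of car (109), Vps39 (79.4) and Vps8 (76.1) were lower, and dor, lt and Vps11 had no pooled candidate. Members of these complexes thus differed among themselves in pooled signal.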
